A study of Mus musculus with 2 samples.

Results

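The oxidative phosphorylation genes described here are the 105 rows, of 15416 genes in the UMI matrix, whose symbols name subunits of the respiratory chain and ATP synthase or factors that assemble them. The rule used symbols alone: Nduf for complex I, Sdha to Sdhd for complex II, Uqcr for complex III, Cox4 to Cox8 for complex IV, Atp5 for complex V and mt- for the mitochondrial genome. It found 92 nuclear genes, namely 37 complex I subunits, 8 complex I assembly factors, 4 complex II subunits, 4 complex II assembly factors, 8 complex III subunits, 15 complex IV subunits and 16 complex V subunits. The other 13 are the protein-coding genes of the mitochondrial genome. Ndufa4 stands with complex I by its symbol, although its protein is now known as a part of complex IV.

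Complexes I to IV pass electrons from NADH and succinate to oxygen. Of these, I, III and IV pump protons across the inner mitochondrial membrane. Complex V, the ATP synthase, uses the returning protons to make ATP. Complexes I, III, IV and V each combine nuclear subunits with subunits made inside the mitochondrion, whereas complex II is wholly nuclear. A few complex IV subunits have tissue-restricted forms, among them Cox6a2, the heart and skeletal muscle form whose ubiquitous partner is Cox6a1. T cells and dendritic cells shift between oxidative and glycolytic metabolism when they are activated.

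Tumours of 3 mice gave the cells, taken by a sort for the surface proteins CD45 and JAML, and the hashtag names read B16F10, a mouse melanoma line, with isotype and CTRL. All 3 mice belong to this 1 group, with no strain, age or genotype in the labels used here, so every comparison was between kinds of cell within the same mice and none was between treatments. One 10x Genomics 5′ library held 5976 cells and 103155608 UMIs (unique molecular identifiers, each counting 1 captured transcript), and hashtags placed 2445, 1184 and 2339 cells in mouse 1, 2 and 3. T cells are the cell type given in the labels, and the extraction label adds the word TREG, but many carried markers of dendritic cells or macrophages.

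The authors' 16 subclusters were named from markers. Subclusters 0 and 9 met 8 of 8 plasmacytoid dendritic markers. Subcluster 6 was type 1 dendritic-like, subcluster 4 type 2 dendritic-like, subcluster 12 mature migratory dendritic-like and subcluster 2 macrophage-like. Subcluster 11 was dividing dendritic-like, and met all 8 type 1 dendritic and all 6 dividing markers. Of its 129 cells, 82 lie in the authors' Xcr1 cluster and 44 in their Ifitm1 cluster, which also holds subclusters 4 and 12. Its type 2 dendritic markers summed to 767 CPM, against 166 CPM in subcluster 6. Subclusters 1, 5, 7, 10 and 15 were T cell-like, 8 and 14 dividing T cell-like, and 3 NK or innate-like with 3 of 4 gamma-delta markers as well. Subcluster 13 lies in the authors' Siglech cluster but met 3 type 2 dendritic markers and was led by Upk1b and Apod, so it was left unnamed. Subclusters were built from all genes, so their levels are given as a description with no test.

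Levels are CPM, a gene's UMIs scaled to the total of the summed cells of 1 mouse, and sums of under 10 cells were left out, which removed mouse 2 from subcluster 14 and mouse 1 from subcluster 15. Together the nuclear members took a mean share of 1.89 to 2.66% of UMIs, highest in the T cell-like subclusters 5, 8 and 14. Their summed share was 2.67, 2.75 and 2.54% of UMIs in mouse 1, 2 and 3 in subcluster 5, and 2.79, 2.69 and 2.47% in the dividing subcluster 8. The lowest mean shares were 1.89 ± 0.154% in subcluster 10 and 1.89 ± 0.0408% in subcluster 12 (SD, n = 3 each). Every mouse was higher in subclusters 5 and 8 than in subclusters 10 and 12.

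The mitochondrially encoded members varied more and in another order. Their summed share was 3.94, 3.88 and 3.98% in subcluster 9, 3.61, 3.25 and 3.09% in subcluster 7, and 2.93, 2.88 and 2.83% in subcluster 0. It was 1.51, 1.49 and 1.49% in subcluster 4, the lowest, so subcluster 9 stood above subcluster 4 in every mouse. Between the 2 plasmacytoid-like subclusters the ratio of mean shares was 1.36, subcluster 9 over subcluster 0. Over the 16 subclusters the nuclear and mitochondrial shares had Pearson's r of -0.214 and Spearman's rho of -0.259, a description only, since all points come from 1 library and both shares have the same denominator.

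**Figure D1:**
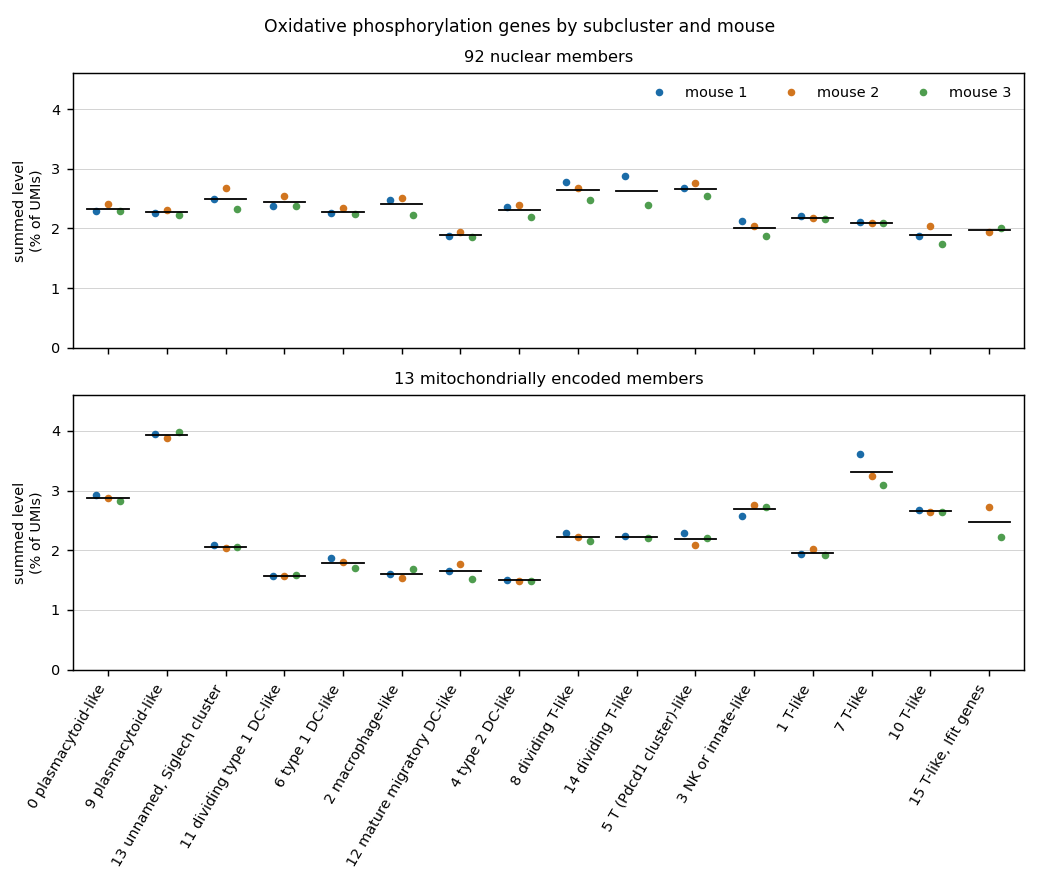
Summed level of the 92 nuclear members (top) and the 13 mitochondrially encoded members (bottom) in percent of UMIs, for the 16 subclusters; points are mice and black lines are means over mice. Nuclear means lie between 1.89 and 2.66%, while mitochondrial means run from 1.50% in subcluster 4 to 3.93% in subcluster 9.

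Of the 13 mitochondrially encoded genes, 12 were highest in subcluster 9, and mt-Nd6 was highest in subcluster 10. mt-Co1, the catalytic subunit of complex IV, averaged 9039 CPM in subcluster 9 and 3152 CPM in subcluster 11, its lowest. The highest over lowest ratio was 4.41 for mt-Nd5, 3.86 for mt-Nd6 and 3.50 for mt-Nd4, all membrane subunits of complex I, and 2.33 to 3.38 for the other 10. The share of mitochondrial UMIs is also what cell filters cut on: no cell in the matrix exceeds 5%, and 107 of the 268 cells of subcluster 9 (39.9%) lie above 4%, against 0 to 9.09% of cells in the other subclusters. The part of that limit and of RNA quality in these levels was not tested.

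Among nuclear members, most hardly varied. Of the 85 with at least 20 CPM in their highest subcluster, 69 had a highest level under 1.5 times their median over subclusters, and 5 reached 2 times or more. The median of that ratio was 1.36. The mature migratory dendritic-like subcluster 12 was the lowest of all for 31 of the 85, and subcluster 10 for 20. The highest was subcluster 13 for 17, subcluster 8 for 15, and subclusters 5 and 14 for 12 each.

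Cox6a2 varied most by far, with a highest level 204 times its median. It averaged 1616 CPM in subcluster 9 and 1456 CPM in subcluster 0, against 73.5 CPM in subcluster 13 and 2.97 to 21.02 CPM in the others. The ubiquitous Cox6a1 averaged between 203 and 400 CPM in all 16. Of the UMIs of the 2 isoforms together, Cox6a2 made up 84.1 ± 1.31% in subcluster 9, 83.5 ± 0.964% in subcluster 0 and 16.7 ± 2.13% in subcluster 13 (SD, n = 3 each), and at most 8.01% as a mean elsewhere. In bulk sums of this kind, more cells with the transcript and more transcript per cell cannot be told apart, so cells were also counted.

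With every cell thinned to 7537 UMIs and shallower cells left out, Cox6a2 had a UMI in 98.1% of subcluster 9 cells (exact Clopper-Pearson 95% interval 95.6 to 99.4%) and 93.2% of subcluster 0 cells (91.4 to 94.7%). The share was 19.1% in subcluster 13 (12.4 to 27.5%) and 1.60 to 7.03% in the other subclusters. Unthinned, the shares were 97.8% in subcluster 9, 95.5% in subcluster 0 and 27.0% in subcluster 13, with median depths of 12510, 13482 and 19176 UMIs. In T cell-like subcluster 1, which should lack the gene, it was 4.71% of cells unthinned at a median of 8550 UMIs, and no cell there held more than 2 Cox6a2 UMIs. These intervals cover counting error only.

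Per UMI of Siglech, a surface lectin of plasmacytoid cells, Cox6a2 gave 0.652 UMIs in subcluster 9 and 0.656 in subcluster 0. In the other subclusters with at least 100 Siglech UMIs the ratio was 0.259 in 13, 0.428 in 12, 0.598 in 2, 0.657 in 6, 0.698 in 4 and 0.889 in 5. Those with fewer Siglech UMIs ran from 0.25 to 1.4. Outside the Siglech cluster the UMIs were unevenly spread over cells: subcluster 2 held 284 Cox6a2 UMIs in 78 of 715 cells, up to 45 in 1 cell. Free RNA and mixed droplets as sources of these UMIs were not tested. Of 10 skeletal muscle markers, 5 had rows (Ckm, Tnnt1, Tnnt3, Tnni2 and Mylpf), and their summed level was 78.0 CPM in subcluster 9, 67.7 CPM in subcluster 0 and 125 CPM in subcluster 6, most of it from Tnni2 (72.9, 62.8 and 119 CPM). Ckm, Tnnt1 and Tnnt3 had no UMI in subcluster 9, and the other 5 were not analysed here. Pgam2, the muscle form of phosphoglycerate mutase, was not on that list and is named after its values were seen: it had 109 CPM in subcluster 9, 151 CPM in subcluster 0 and at most 4.95 CPM elsewhere.

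Cox6a2 lies on chromosome 7 from 128205435 to 128206387 on the minus strand (mm10, GENCODE M21) and overlaps Itgad on the plus strand. Strand use in counting is not given in the sources used here. Itgad had 175 UMIs in all cells, 107 of them in subcluster 0 and 24 in subcluster 9, against 25159 UMIs of Cox6a2.

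**Figure D2:**
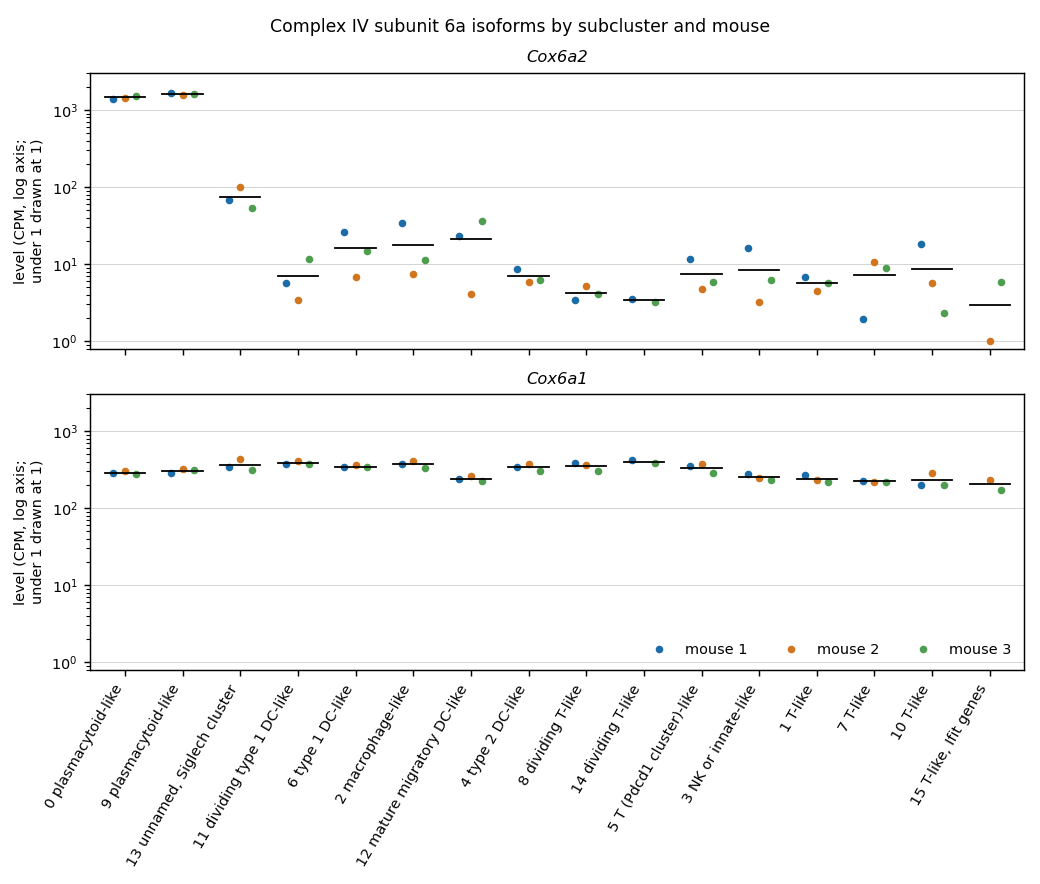
Level of Cox6a2 (top) and Cox6a1 (bottom) in CPM on a log axis for the 16 subclusters, with values under 1 drawn at 1; points are mice and black lines are means over mice. Cox6a2 is above 1000 CPM in every mouse in subclusters 0 and 9, while Cox6a1 stays between 203 and 400 CPM as a mean throughout.

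Other restricted complex IV forms were rare. Cox4i2, the oxygen-responsive lung form of subunit 4, had 137 UMIs in the macrophage-like subcluster 2 (0.853 ± 0.143% of subunit 4 UMIs) and 8 or fewer in each other subcluster. Cox7a1, the heart and muscle form of subunit 7a, was also highest in subcluster 2 (7.66 CPM), and it was the 1 nuclear member that did not pass the filter on low counts. Cox6b2, known as the testis form of subunit 6b, reached 17.0 CPM and 3.00 ± 0.459% of subunit 6b UMIs in the type 2 dendritic-like subcluster 4. Cox8b and Ndufa4l2 were not analysed here.

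4 further nuclear members reached 2 times their median. Sdhaf1, which protects the iron-sulfur subunit of complex II during assembly, had 194, 242 and 244 CPM in the mature migratory dendritic-like subcluster 12. The next subcluster, 13, had 60.4, 89.7 and 95.9 CPM, so no mouse of any other subcluster reached the level of subcluster 12. The ratio of means was 6.53, subcluster 12 over the type 2 dendritic-like subcluster 4, at mean nuclear shares of 1.89% and 2.32%. Ndufaf6, a complex I assembly factor, had 27.6, 39.7 and 25.5 CPM in the type 1 dendritic-like subcluster 6.

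Ndufaf2, another complex I assembly factor, had 47.6, 50.6 and 35.7 CPM in dividing T cell-like subcluster 8 and 34.5, 47.5 and 36.3 CPM in dividing subcluster 11. Ndufa6, an accessory complex I subunit, had 469, 513 and 471 CPM in subcluster 4. It had 155, 133 and 167 CPM in subcluster 8, below every mouse of subcluster 4. Of the 4 subunits of complex II itself, none exceeded 1.53 times its median.

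**Figure D3:**
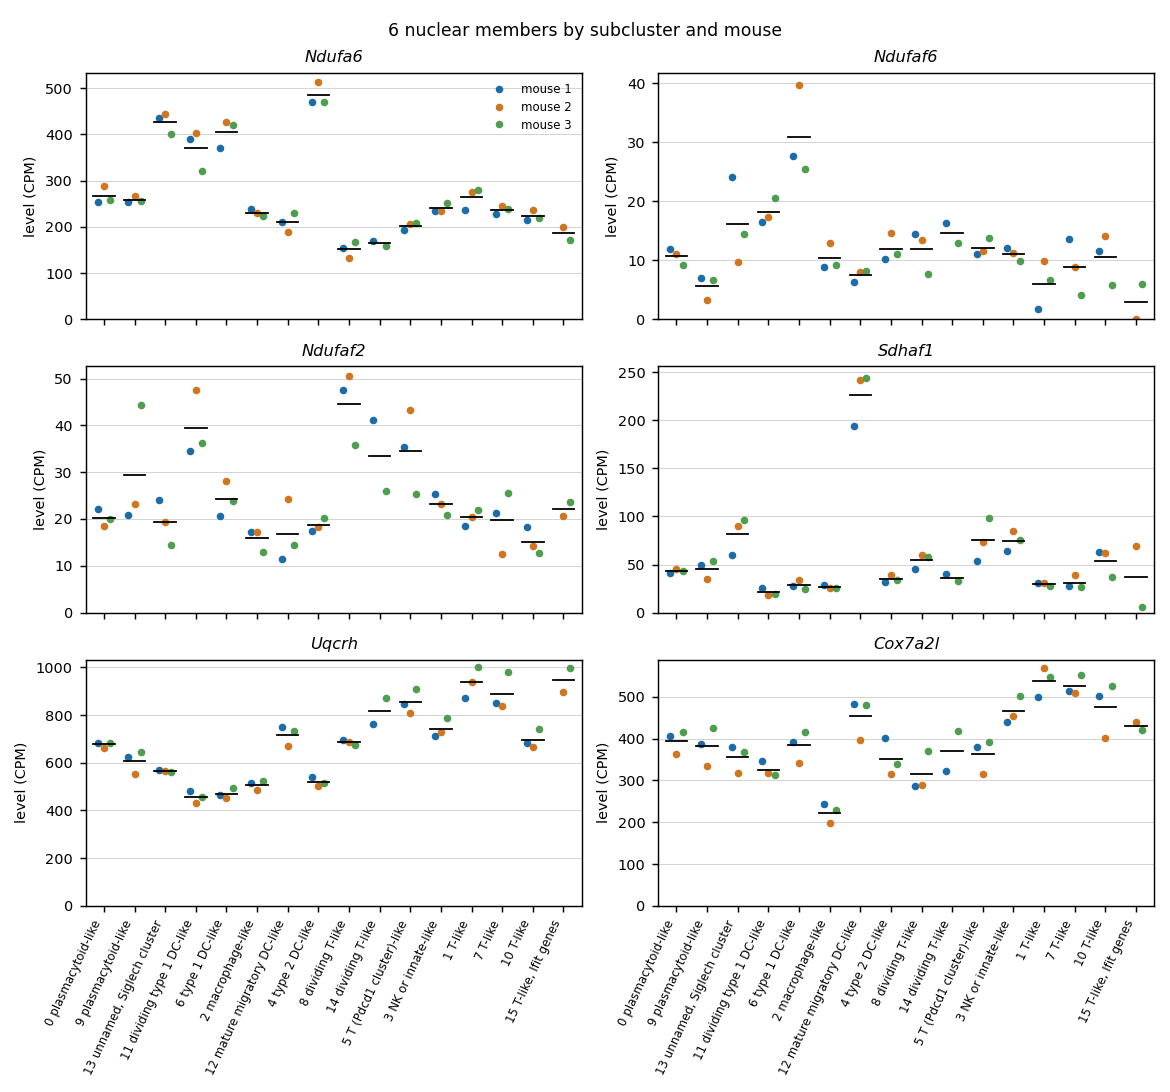
Level in CPM of 6 nuclear members for the 16 subclusters; points are mice and black lines are means over mice. Sdhaf1 stands out in subcluster 12 (194 to 244 CPM), Ndufa6 is highest in subcluster 4 and lowest in subcluster 8, and Cox7a2l is lowest in subcluster 2.

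Promoters are shown for Cox6a1, the partner of Cox6a2, and for the 3 nuclear members whose levels set the results above and below apart, picked after their values were seen. The windows run from 250 bases before to 50 bases after the RefSeq start (GRCm38.p6), all on the minus strand, and capitals mark the NRF1 motif (GCGC, any base, then TGCGC) and the ETS motif (CCGGAAG) on either strand, which do not overlap here. Both factors are known regulators of nuclear respiratory genes. Cox6a1 is at chr5:115348909-115349208, Ndufa6 at chr15:82354242-82354541, Sdhaf1 at chr7:30322326-30322625 and Cox7a2l at chr17:83514284-83514583. In GENCODE M21 Sdhaf1 begins at 30323895 and Cox7a2l at 83517330 on the minus strand. Their windows thus lie inside the GENCODE genes, and the GENCODE starts were not searched.
Cox6a1: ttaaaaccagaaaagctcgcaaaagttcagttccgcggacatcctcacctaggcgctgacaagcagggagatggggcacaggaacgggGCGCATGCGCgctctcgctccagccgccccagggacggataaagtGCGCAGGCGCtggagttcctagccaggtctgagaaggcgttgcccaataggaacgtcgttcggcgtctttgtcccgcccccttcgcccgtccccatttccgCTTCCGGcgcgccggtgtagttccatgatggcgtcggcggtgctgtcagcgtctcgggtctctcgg
Ndufa6: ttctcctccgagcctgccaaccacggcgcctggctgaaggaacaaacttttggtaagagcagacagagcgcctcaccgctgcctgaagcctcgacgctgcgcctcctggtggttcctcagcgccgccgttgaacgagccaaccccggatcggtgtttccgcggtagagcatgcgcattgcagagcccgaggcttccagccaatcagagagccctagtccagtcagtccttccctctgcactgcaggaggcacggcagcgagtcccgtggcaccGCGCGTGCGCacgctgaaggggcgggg
Sdhaf1: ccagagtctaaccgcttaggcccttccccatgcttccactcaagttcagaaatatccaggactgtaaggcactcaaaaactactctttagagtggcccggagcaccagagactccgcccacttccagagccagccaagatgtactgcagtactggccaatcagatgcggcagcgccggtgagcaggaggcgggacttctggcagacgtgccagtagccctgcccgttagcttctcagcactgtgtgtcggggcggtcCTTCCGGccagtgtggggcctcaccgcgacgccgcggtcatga
Cox7a2l: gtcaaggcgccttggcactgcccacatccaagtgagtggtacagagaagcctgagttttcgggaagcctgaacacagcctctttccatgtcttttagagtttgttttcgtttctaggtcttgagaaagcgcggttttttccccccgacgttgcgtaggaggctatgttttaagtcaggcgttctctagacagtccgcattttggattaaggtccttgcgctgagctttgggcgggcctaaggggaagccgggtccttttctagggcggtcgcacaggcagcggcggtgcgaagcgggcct
The NRF1 letters were in 19 of 77 nuclear members with an entry (24.7%), against 4.78% of 27025 promoters of the same length, and the ETS letters in 20 of 77 (26.0%), against 9.12%. A match describes letters, not a bound site. Cox6a2 has no entry.

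For tests, cells were gated on transcripts of genes that are not members, UMIs were summed per mouse and gate, and edgeR's quasi-likelihood test with the mouse as a block was run over 9630 genes with Benjamini-Hochberg adjustment over all of them, calling an adjusted p under 0.05. Of the members, 91 nuclear and 13 mitochondrially encoded genes passed the filter on low counts. The 9 gates held 2970 cells, with 10 to 436 cells and 224719 to 8026685 UMIs per mouse. CD8 gates required Cd8a or Cd8b1 with a Cd3 chain. The NK gate required Ncr1 and no UMI of Cd8a, Cd8b1 or Cd4, but did not exclude Cd3 chains. Of its 124 cells, 122 lay in subcluster 3, which met Cd3d and 3 of 4 gamma-delta markers, so this gate may hold cells other than NK cells. Dendritic and macrophage gates required Siglech (plasmacytoid), Xcr1 (type 1), Cd209a (type 2) or C1q genes (macrophage). Dividing gates required at least 2 UMIs of Mki67 and Top2a together, which 1 of these genes alone could supply. Reads of Ndufab1, Uqcrh and Atp5c1 could be shared with their pseudogenes, Ndufa13 overlaps Yjefn3, Ndufb8 overlaps Gm20538 and Cox4i1 overlaps Gm20388 on the same strand, so their levels are less certain.

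The plasmacytoid gate differed from the conventional dendritic gates in opposite ways for the 2 genomes, in a contrast where 49.3% of all genes were called. All 13 mitochondrially encoded members were higher than in the mean of the type 1 and type 2 gates, with a median log2 fold change of 0.80, where 26.3% of all genes tested were called higher. Of the 91 nuclear members, 44 were lower, where 23.0% of all genes were called lower, and 3 were higher. Their median log2 fold change was -0.24, against 0.06 for all genes, and 69 of 91 lay below 0. Without mouse 1 the nuclear counts were 19 lower and 2 higher.

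In mouse 1, 2 and 3 the summed mitochondrial share was 3.06, 3.08 and 3.00% in the plasmacytoid gate. It was 1.93, 1.91 and 1.60% in the type 1 gate and 1.49, 1.65 and 1.44% in the type 2 gate, so the plasmacytoid gate lay above both others, which overlapped. The summed nuclear share without Cox6a2 was 2.14, 2.28 and 2.15% in the plasmacytoid gate, 2.12, 2.25 and 2.18% in the type 1 gate and 2.41, 2.45 and 2.21% in the type 2 gate, so the ranges of all 3 gates overlapped. Plasmacytoid cells were shallower, with medians of 12752 to 13794 UMIs per mouse against 19966 to 26083 UMIs in the conventional gates. With the same gated cells thinned to equal depth, 32 nuclear members were lower and 3 higher, and 12 mitochondrial ones were higher. With cells thinned and gated again (902 plasmacytoid cells in place of 730) the counts were 40, 4 and 12.

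mt-Nd5 had 491, 472 and 438 CPM in the plasmacytoid gate, against 193, 202 and 145 CPM in the type 1 gate and 172, 167 and 179 CPM in the type 2 gate. It showed the largest change of the mitochondrial genes, a log2 fold change of 1.23 ± 0.10 (standard error; edgeR adjusted p = 2.0e-10). mt-Nd4 rose by 1.08 ± 0.08, mt-Nd4l, mt-Nd3, mt-Co1, mt-Atp8 and mt-Nd2 by 0.80 to 0.91, and mt-Atp6, mt-Cytb, mt-Co3, mt-Co2, mt-Nd6 and mt-Nd1 by 0.46 to 0.72. mt-Nd6 overlaps mt-Nd5 on the other strand, and its adjusted p was 0.044.

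Cox6a2 had 1385, 1310 and 1425 CPM in the plasmacytoid gate, against 3.85, 2.06 and 0 CPM in the type 1 gate and 4.32, 2.63 and 3.59 CPM in the type 2 gate. The fitted log2 fold change was 8.78 ± 0.18 (edgeR adjusted p = 6.9e-22), with 4 UMIs in the 81 cells of the type 1 gate and 15 in the 186 cells of the type 2 gate. Both conventional gates allowed no Siglech UMI, so cells with Cox6a2 and Siglech together were left out of them. Ungated, Cox6a2 had 182 UMIs in the 369 cells of subcluster 6 and 97 in the 524 cells of subcluster 4. How far this gating sets the size of the change was not tested. Its partner Cox6a1 fell, with 288, 315 and 285 CPM in the plasmacytoid gate against 288, 364 and 353 CPM in the type 1 gate and 352, 375 and 302 CPM in the type 2 gate (log2 fold change -0.37, edgeR adjusted p = 0.0041). The other nuclear members called higher were Sdha, the flavoprotein of complex II, and Cox4i1, the ubiquitous form of subunit 4.

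By complex, 13 of 37 complex I subunits, 2 of 8 complex I assembly factors, 2 of 4 complex II subunits, 4 of 8 complex III subunits, 11 of 14 complex IV subunits and 12 of 16 complex V subunits were lower, and none of the 4 complex II assembly factors. Ndufa6 was 263, 295 and 260 CPM in the plasmacytoid gate, against 394, 389 and 451 CPM in the type 1 gate and 469, 497 and 526 CPM in the type 2 gate (log2 fold change -0.91 ± 0.10, edgeR adjusted p = 4.1e-08). The plasmacytoid gate lay below every mouse of both others. The log2 fold change was -1.26 for Ndufaf6, -0.77 for Ndufb8, an accessory complex I subunit, and -0.70 for Sdhd, a membrane anchor of complex II.

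Complex II was split within itself, with Sdha higher at 0.29 and Sdhc, the other anchor, lower at -0.49. Sdha had 107, 95.1 and 107 CPM in the plasmacytoid gate, against 60.4, 98.7 and 64.4 CPM in the type 1 gate and 75.1, 82.3 and 76.4 CPM in the type 2 gate, where mouse 2 of the type 1 gate reached into the plasmacytoid range. Sdhb, the iron-sulfur subunit, did not pass the threshold. Cox4i2, counted among those lower, had no UMI in the plasmacytoid gate, against 1 in the type 1 gate and 12 in the type 2 gate. Taking 3 UMIs over the plasmacytoid gate as the floor, its level fell by at least 2.51 on the log2 scale, and with this bound the median of the 91 stayed at -0.24.

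**Figure D4:**
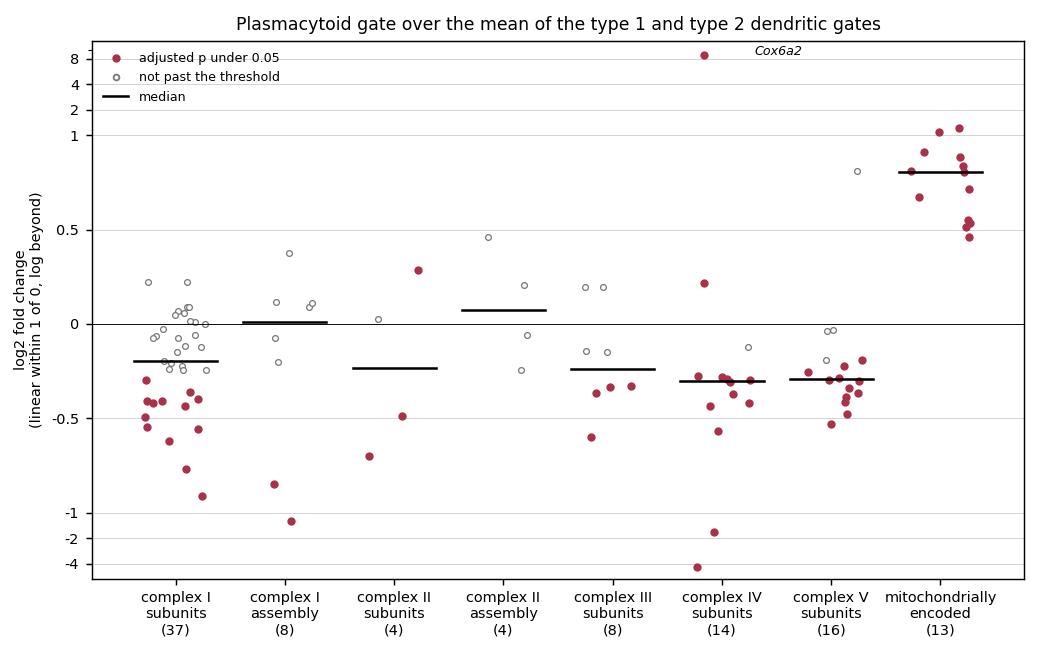
Log2 fold change of each tested member, plasmacytoid gate over the mean of the type 1 and type 2 dendritic gates, by complex (number of members in brackets); the axis is linear within 1 of 0 and logarithmic beyond. Filled points passed an adjusted p of 0.05 and black lines are medians: the 13 mitochondrially encoded members lie between 0.46 and 1.23, and the medians of the subunit groups of complexes I to V lie between -0.20 and -0.30. The lowest point is the fitted value of Cox4i2, which had no UMI in the plasmacytoid gate.

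Genes around the chain, from lists written with earlier results of these data known, gave counts in the same contrast, in which 23.0% of all genes were lower and 26.3% higher. Of 77 mitochondrial ribosome genes tested, 24 were lower and 4 higher, with a median log2 fold change of -0.23. Of 17 citric acid cycle genes, 6 were lower and 3 higher, of 14 carriers 8 were lower and 1 higher, and of 28 electron carriers and complex assembly genes 6 were lower and 3 higher. Cycs, cytochrome c, which carries electrons to complex IV, was 165 ± 17.3 CPM in the plasmacytoid gate, 487 ± 73.4 CPM in the type 1 gate and 306 ± 76.5 CPM in the type 2 gate (SD, n = 3 each), a log2 fold change of -1.41. Slc25a3, the phosphate carrier that feeds ATP synthase, fell by 0.77 on the log2 scale. Of 14 biogenesis regulators 3 were higher and 3 lower, with Mterf1a, a mitochondrial transcription termination factor, at 1.38 and Pprc1, a coactivator of nuclear respiratory genes, at -1.23.

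The dividing CD8 gate had more nuclear transcripts of the chain than the non-dividing Pdcd1-positive CD8 gate. Of 91 nuclear members 15 were higher, where 10.4% of all genes were called higher, and 3 were lower, where 6.53% of all genes were. The median log2 fold change was 0.18, against -0.03 for all genes, and 74 of 91 lay above 0. The summed nuclear share was 2.77, 2.66 and 2.39% in the dividing gate, against 2.50, 2.43 and 2.21% in the Pdcd1-positive gate. It was higher in each of the 3 mice, although mouse 3 of the dividing gate lay below mouse 1 and 2 of the other gate.

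The gates also drew on different subclusters: of dividing cells 43.1% lay in subcluster 8, 25.4% in 5 and 10.6% in 14, and of Pdcd1-positive cells 46.3% in subcluster 1, 27.8% in 5 and 18.1% in 7. Subcluster 5, T cell-like and not named as dividing, had a mean nuclear share of 2.66%, against 2.65% in subcluster 8, 2.17% in 1 and 2.09% in 7. Its 449 cells are mixed, with 136 in the dividing gate and 126 in the Pdcd1-positive gate. The dividing markers summed to 253 CPM in subcluster 5, against 2960 CPM in subcluster 8 and 75.3 CPM in subcluster 1. Dividing cells were deeper, with medians of 28282.5, 28945 and 14996.5 UMIs against 15842, 10546.5 and 8944 UMIs. With the same gated cells thinned to equal depth, an alternative chosen after seeing the data, 1 nuclear member was higher and 3 were lower. With cells thinned and gated again, which changed the dividing gate to 398 cells in place of 536, 2 were higher and 3 lower. The counts were 1 higher and 3 lower without mouse 1, 1 and 1 without mouse 2, and 4 and 4 without mouse 3. With RLE size factors they were 10 higher and 4 lower.

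The largest rise among the called members was that of Ndufab1, the mitochondrial acyl carrier protein that is also a complex I subunit. It had 246, 250 and 199 CPM in the dividing gate, against 158, 136 and 115 CPM in the Pdcd1-positive gate, with no overlap (log2 fold change 0.75 ± 0.11, edgeR adjusted p = 1.6e-05, and called in all 13 alternatives). Ndufa5, a complex I subunit, rose by 0.50 ± 0.13, Ndufc1 by 0.46 ± 0.15 and Ndufaf2 by 0.61 ± 0.21, and their calls were lost with at least 1 mouse left out. In complex V, 5 of 16 subunits rose and none fell, among them the catalytic subunits Atp5a1 (0.35) and Atp5b (0.43). Atp5b had 773, 776 and 603 CPM in the dividing gate, against 588, 528 and 464 CPM in the Pdcd1-positive gate.

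The 3 nuclear members that fell belong to complexes I, III and IV. Uqcrh, the hinge protein of complex III, had 709, 678 and 766 CPM in the dividing gate, against 925, 977 and 1055 CPM in the Pdcd1-positive gate (log2 fold change -0.47 ± 0.10, edgeR adjusted p = 0.0014). Cox7a2l, which helps join complexes III and IV into supercomplexes, had 313, 287 and 407 CPM in the dividing gate, against 435, 470 and 541 CPM in the Pdcd1-positive gate (-0.54 ± 0.12, edgeR adjusted p = 0.002). Ndufa6 fell by 0.42 ± 0.11 on the log2 scale. For all 3 the dividing gate lay below the Pdcd1-positive gate in every mouse, and each kept its call under both kinds of thinning. The calls of Cox7a2l and Ndufa6 were lost with a mouse left out, at adjusted p up to 0.12 and 0.15.

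Among the mitochondrially encoded genes mt-Co1 fell, with 4091, 3889 and 4903 CPM in the dividing gate against 4783, 4994 and 5645 CPM in the Pdcd1-positive gate (-0.27 ± 0.07, edgeR adjusted p = 0.013), a call kept with the same cells thinned and lost when they were gated again, and the median of the 13 was 0.01. Beyond the chain, where 10.4% of all genes rose and 6.53% fell, 15 of 77 mitochondrial ribosome genes rose and 1 fell, as did 4 of 17 citric acid cycle genes and 4 of 14 carriers with none lower. Of 28 electron carriers and assembly genes 3 rose and 3 fell. Cycs averaged 272 ± 35.3 CPM in the dividing gate and 165 ± 31.3 CPM in the Pdcd1-positive gate (SD, n = 3 each; log2 fold change 0.72). Coq7, an enzyme of ubiquinone synthesis, rose by 1.49 on the log2 scale, and Mrpl51, a mitochondrial ribosome protein, by 0.78.

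The same question was put to type 1 dendritic cells. In the dividing type 1 gate against the non-dividing type 1 gate 1 nuclear member was called lower and none higher. Also called lower were 4 mitochondrially encoded members. Of all genes 7.95% were called, 4.89% higher and 3.06% lower. The nuclear median was -0.02, against -0.12 for all genes. The summed nuclear share was 2.45, 2.34 and 2.37% in the dividing gate, against 2.12, 2.25 and 2.18% in the non-dividing gate. It was thus higher in every mouse, without overlap, as a description with no test. The smallest sum held 10 cells, in mouse 2 of the dividing gate. The nuclear member was Cox7a2l, with 329, 310 and 337 CPM in the dividing gate against 444, 378 and 388 CPM in the non-dividing gate (log2 fold change -0.49 ± 0.13, edgeR adjusted p = 0.015). Without mouse 1, or without mouse 2, no member was called, and without mouse 3 there were 2 nuclear members and 1 mitochondrially encoded member, all lower. With the same gated cells thinned to equal depth no member was called.

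In the fit mt-Co1 fell by 0.32 and mt-Co2, mt-Atp6 and mt-Co3 by 0.22 to 0.24 on the log2 scale. mt-Atp6 had 3064, 3252 and 2867 CPM in the dividing gate against 3144, 3280 and 3069 CPM in the non-dividing gate, ranges that overlap. The CPM of the other members were not lower in mouse 3. There mt-Co1 had 3622 CPM in the dividing against 3515 CPM in the non-dividing gate, and mt-Co3 3187 against 3008 CPM. mt-Co2 had 2848 CPM in both. The summed mitochondrial share was 1.73, 1.89 and 1.66% in the dividing gate, against 1.93, 1.91 and 1.60% in the non-dividing gate. With RLE size factors 1 mitochondrially encoded member was called lower. Of the lower members, Cox7a2l and mt-Co1 were called in both division contrasts, that is 2 of 4 in CD8 cells and 2 of 5 in type 1 dendritic cells. Of all genes 6.53% were lower in the CD8 contrast and 3.06% in the type 1 contrast. The overlap over all genes was not counted, so the overlap of members is given as a description only. The difference between the 2 division effects was tested directly: no member passed (0 of 104 by edgeR and 0 by DESeq2, 19 at an unadjusted p under 0.05, smallest edgeR adjusted p 0.13 for Ndufab1), where 0.0312% of all genes did, 0.0208% higher and 0.0104% lower.

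**Figure D5:**
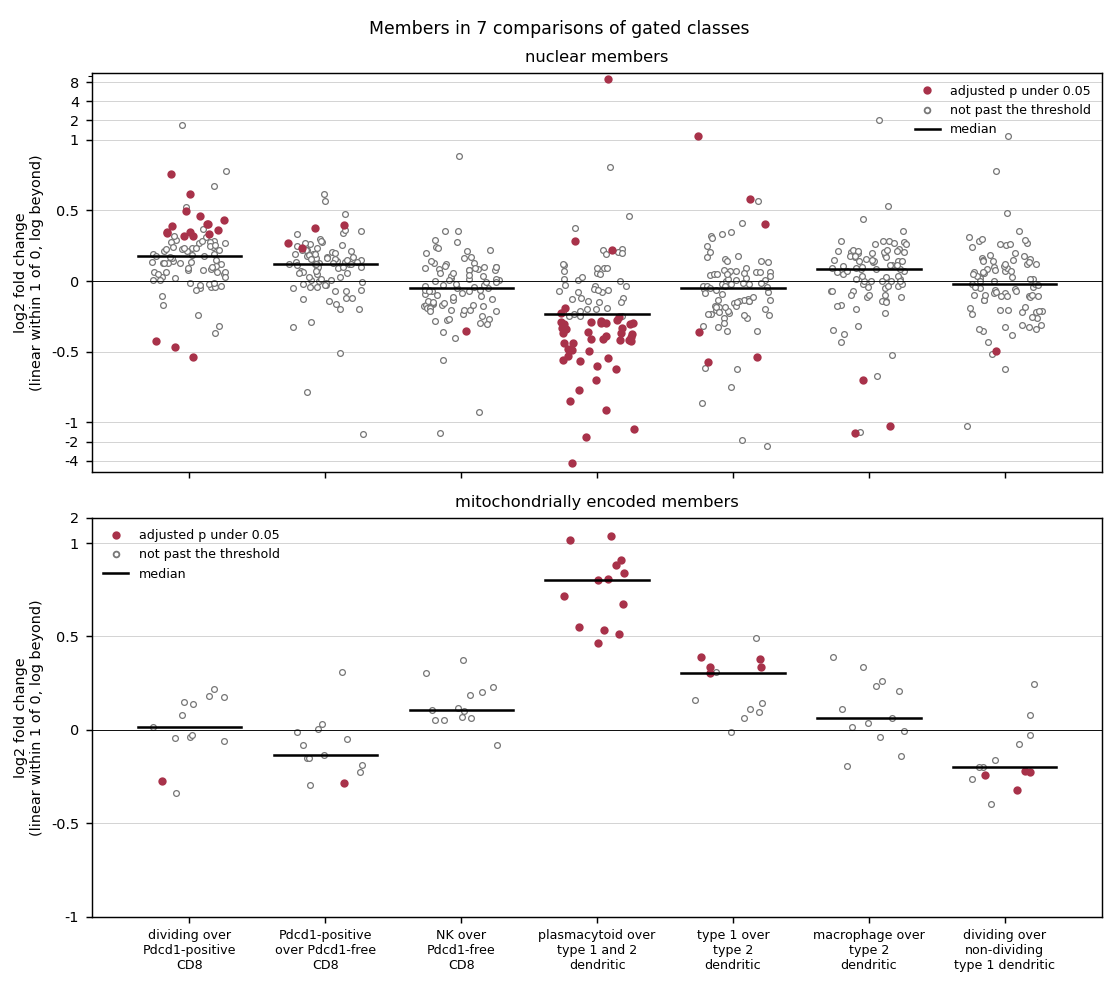
Log2 fold change of each tested nuclear member (top) and mitochondrially encoded member (bottom) in 7 comparisons, first-named gate over the second; axes are linear within 1 of 0 and logarithmic beyond. Filled points passed an adjusted p of 0.05 and black lines are medians: the plasmacytoid column has the lowest nuclear median (-0.24) and the highest mitochondrial one (0.80).

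Pdcd1 marks activated and exhausted T cells. In the Pdcd1-positive against the Pdcd1-free non-dividing CD8 gate 4 nuclear members rose, where 3.74% of all genes were called higher, and none fell, where 7.11% of all genes were called lower. Uqcrh had 925, 977 and 1055 CPM in the Pdcd1-positive gate, against 653, 669 and 872 CPM in the Pdcd1-free gate, without overlap (log2 fold change 0.40 ± 0.10, edgeR adjusted p = 0.0097). Ndufa13, a complex I subunit also known as GRIM-19, rose by 0.38 ± 0.09, Atp5c1, the central stalk subunit of ATP synthase, by 0.27 ± 0.08 and Cox4i1 by 0.23 ± 0.07. mt-Nd2 fell by 0.28 ± 0.09. The Pdcd1-free gate held 121 of 698 cells from the NK or innate-like subcluster 3 and 40 from the type 2 dendritic-like subcluster 4, and with cells from the matching T cell-like subclusters alone, or without mouse 1 or mouse 2, no nuclear member was called, while 6 were without mouse 3.

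The summed nuclear share was 2.50, 2.43 and 2.21% in the Pdcd1-positive gate against 2.09, 2.11 and 2.04% in the Pdcd1-free gate. In the lists around the chain, 3 of 28 electron carriers and assembly genes, 1 of 14 carriers and 1 of 77 mitochondrial ribosome genes were higher. None of these lists had a gene called lower. Of 17 citric acid cycle genes and 14 biogenesis regulators 0 were called, where 3.74% of all genes were higher and 7.11% lower. Cox17, a copper chaperone of complex IV, was 199 ± 50.5 CPM in the Pdcd1-positive gate and 121 ± 5.28 CPM in the Pdcd1-free gate (SD, n = 3 each; log2 fold change 0.66). Slc25a4, an ADP/ATP carrier, rose by 0.50 on the log2 scale.

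The NK gate against the Pdcd1-free CD8 gate differed in 1 member: Cox5a, a nuclear-encoded subunit of complex IV, had 370, 356 and 342 CPM in the NK gate, against 429, 424 and 442 CPM in the Pdcd1-free gate (log2 fold change -0.35 ± 0.10, edgeR adjusted p = 0.029). Of all genes 7.14% were called here, and 4.67% were called lower. The nuclear median log2 fold change was -0.05, against -0.03 for all genes. The Cox5a call was lost without any 1 of the mice, the NK gate holding 20 to 63 cells a mouse. It was also lost with doubled gates, with only the compared gates, with cells thinned and gated again and with matching subclusters, and in the last 2 settings the 1 nuclear member called was Cox7a2, the ubiquitous form of subunit 7a, higher in the NK gate.

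Type 1 and type 2 dendritic cells differed in 6 nuclear members. In the type 1 gate 3 nuclear members were higher and 3 lower than in the type 2 gate, where 15.1% of all genes were called, 7.0% higher and 8.06% lower. Cox5a had 361, 378 and 379 CPM in the type 1 gate against 597, 598 and 510 CPM in the type 2 gate (log2 fold change -0.54 ± 0.10, edgeR adjusted p = 2.7e-04). Ndufb11, an X-linked complex I subunit, had 360, 321 and 388 CPM in the type 1 gate against 264, 246 and 238 CPM in the type 2 gate (0.58 ± 0.12, edgeR adjusted p = 8.7e-04). Neither gene's groups overlapped.

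The core subunits of complex III moved in opposite directions, Uqcrc2 by 0.41 ± 0.13 and Uqcrc1 by -0.58 ± 0.15, although both calls were lost with a mouse left out. Ndufaf6 was higher in the type 1 gate (1.12 ± 0.29) and Ndufb3 lower (-0.36 ± 0.12). 5 of 13 mitochondrially encoded members were higher, mt-Co2 the most of them (0.39 ± 0.07), and none of these passed without mouse 1. The nuclear members called numbered 2 without mouse 1, 3 without mouse 2 and 2, both higher, with the same gated cells thinned. In the lists around the chain, 0 of 17 citric acid cycle genes were higher and 3 lower, and of 77 mitochondrial ribosome genes 1 was higher and 3 lower. Of 28 electron carriers and assembly genes 4 were higher and 1 lower, of 14 carriers 3 and 1, and of 14 biogenesis regulators 0 and 1. Of all genes 7.0% were higher and 8.06% lower. Fh1, fumarase of the citric acid cycle, averaged 76.8 ± 5.20 CPM in the type 1 gate and 236 ± 24.4 CPM in the type 2 gate (SD, n = 3 each). Its log2 fold change was -1.56, and Mrpl42, the 1 ribosome gene called higher, rose by 1.56 on the log2 scale.

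In the main fit macrophages differed from type 2 dendritic cells in 3 nuclear members, all lower, and in no mitochondrially encoded member. Of all genes 6.97% were called lower and 6.29% higher. The nuclear median log2 fold change was 0.08, against -0.03 for all genes, and 59 of 91 nuclear members lay above 0. Their summed share was 2.46, 2.60 and 2.37% in the macrophage gate, against 2.41, 2.45 and 2.21% in the type 2 gate. It was higher in every mouse, although the ranges overlapped. Ndufa6 had 262, 230 and 196 CPM in the macrophage gate against 469, 497 and 526 CPM in the type 2 gate (log2 fold change -1.12 ± 0.12, edgeR adjusted p = 4.8e-07, called in all 13 alternatives). Cox7a2l had 229, 187 and 203 CPM in the macrophage gate against 402, 310 and 284 CPM in the type 2 gate (-0.70 ± 0.13, edgeR adjusted p = 3.7e-04, also called in all 13). Neither overlapped between gates. Ndufaf7, a methyltransferase needed for complex I assembly, had 6.63, 10.2 and 9.15 CPM in the macrophage gate against 19.5, 28.0 and 25.2 CPM in the type 2 gate (-1.47 ± 0.36, edgeR adjusted p = 0.0057). With RLE size factors 4 nuclear members were higher and 3 lower. With DESeq2 9 were higher and 3 lower, and 2 mitochondrially encoded members were higher. Of the 186 type 2 gate cells, 31 lay in the macrophage-like subcluster 2 and 18 in subcluster 13. With gate cells from matching subclusters alone, 2 nuclear members were higher and 3 lower, and 2 mitochondrially encoded members were higher.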

How the data were processed

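The deposited matrix holds UMI counts of 15416 genes in 5976 cells, and the deposited cell annotation holds each cell's percent of mitochondrial UMIs, hashtag and subcluster. Per the submitters' processing notes, Cell Ranger 3.1.0, Seurat 3.1.5 and mm10 were used; the filters on cells and genes are not given in the sources used here. The hashtag was taken as the mouse, and no doublet caller was run. Members and gene lists were chosen with earlier results of these data known.

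Cells were gated on marker transcripts (at least 1, 2 or 3 UMIs, other types' markers at 0), 8 cells in more than 1 gate were dropped, and counts were summed per mouse and gate. edgeR 4.0.16 (R 4.3.3) fitted all 9 gates with the mouse as a block, after filterByExpr and TMM scaling, with Benjamini-Hochberg adjustment over 9630 genes. The numbers pair the sums because they are the same animals; deviations from group means had a median correlation of 0.0493 within a mouse and -0.0252 between mice. Whether the 3 mice were handled separately before pooling into 1 library is not given here, so p-values measure the spread between these samples. The script was tested on simulated data. Alternatives included DESeq2 1.42.0, RLE scaling, no filter, each mouse left out, cells thinned and gated again, and, chosen after seeing the data, the same gated cells thinned. Gates use RNA, so a cell without a marker UMI may still express it. Per mouse the totals were 48047914, 22004939 and 33009303 UMIs.

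Genes were named by rule: per comparison and direction the 4 called members with the largest change, at least 20 CPM in the higher gate and the same direction in every mouse; the isoform pairs, complex II subunits and mitochondrially encoded members; the 5 nuclear members with the largest ratio of highest to median subcluster; and the 2 called genes of smallest p per list. Where a count of 5 or fewer left a member outside the rule, it was named after its values were seen. Genes shown by sequence were picked after their values were seen.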

Additional observations from a re-analysis of the deposited data

How the results depend on the processing

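Counts of nuclear members called depended on the setting. For 63 called members, each counted per comparison, the alternatives gave 852 values. Of these, 648 stayed past the threshold, 204 were no longer past it and 0 changed direction. The members were picked because they were called in these same data, so an unchanged direction is no independent support. For dividing CD8 cells (18 called), 6 were called without the low-count filter, 5 with cells thinned and gated again, 4 with the same cells thinned, 7 at an adjusted p of 0.01 and 2 to 8 with a mouse left out. For Pdcd1-positive CD8 cells (4), DESeq2 gave 11, no replicate block 2, totals without mitochondrial and ribosomal genes 2, only the compared gates 2, either thinning 1, an adjusted p of 0.01 1, matching subclusters 0 and a mouse left out 0 to 6. For the NK gate (1), RLE, no filter, DESeq2, doubled gates and totals without mitochondrial and ribosomal genes each gave 2. The same cells thinned gave 3, an adjusted p of 0.01 0, and a mouse left out 0 to 0. For plasmacytoid cells (47) a mouse left out gave 21 to 40. For type 1 against type 2 cells (6), matching subclusters gave 11, the same cells thinned 2 and a mouse left out 2 to 4. For macrophages (3), RLE and doubled gates gave 7, DESeq2 12, matching subclusters 5 and a mouse left out 2 to 3. For dividing type 1 cells (1), RLE, doubled gates and cells thinned and gated again gave 3, DESeq2 and no replicate block 2, no filter, only the compared gates, the same cells thinned and an adjusted p of 0.01 0, and a mouse left out 0 to 2. The difference of division effects stayed at 0. Without the replicate block the other counts were 12 for dividing CD8, 1 for NK, 47 for plasmacytoid, 6 for type 1 against type 2 and 3 for macrophages. The cause was not tested. Without the filter the median of all genes in the plasmacytoid contrast was 0.18, against 0.06 with it. All 8 ratios between subclusters kept their direction. Sums of 10 to 63 cells limit the dividing type 1, NK and macrophage contrasts.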
